A study of Saccharomyces cerevisiae with 9 samples.

Results

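The nuclear genes for the respiratory chain and the ATP synthase of Saccharomyces cerevisiae were followed as 1 group of 34 genes, taken by systematic name from the 7126 genic regions of the table. They are 3 genes of complex II (SDH2, SDH3 and SDH4), 9 of complex III (COR1, CYT1, RIP1, QCR2 and QCR6 to QCR10), CYC1 for cytochrome c, 9 of complex IV (COX4, COX5A, COX5B, COX6 to COX9, COX12 and COX13) and 12 of the ATP synthase (ATP1 to ATP5, ATP7, ATP14 to ATP18 and ATP20). The group was defined by gene identity, not by the measurements, but it was chosen with earlier results of these data known. Poly-A RNA from 3 diploid strains was compared, wildtype, sam1Δ/sam1Δ and sam2Δ/sam2Δ, with 3 libraries each. SAM1 and SAM2 encode the paralogous S-adenosylmethionine synthetases, and the study asked how loss of either one changes the cell.

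All 3 strains share a W303 MATa/α background that carries his3-Δ200, trp1-Δ1, ura3-52, ade2-101 and leu2-3 on both homologs, lys2-801 and can1-100 on 1 of them, and 2 copies of a chromosome fragment marked with TRP1 and SUP11. SAM1 was replaced by KANMX in sam1Δ/sam1Δ and SAM2 by LEU2 in sam2Δ/sam2Δ. Cells were grown at 30 °C and harvested in log phase, at OD600 readings between 0.5 and 0.6, from synthetic complete (SC) medium, which held G418 for sam1Δ/sam1Δ and lacked leucine for sam2Δ/sam2Δ, so the effects of a deletion, its marker and its medium cannot be told apart. Each mutant is 1 strain. The sources used here do not say that replicates came from separate cultures, so P values measure the spread between these libraries only.

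In yeast, electrons from succinate enter the chain through complex II (succinate dehydrogenase) and reach ubiquinone, complex III (the cytochrome bc1 complex) passes them to cytochrome c, and complex IV (cytochrome c oxidase) passes them to oxygen. Protons pumped on the way drive the ATP synthase, a rotary enzyme with a catalytic F1 head and a membrane-embedded F0 part. Glucose represses many of these genes, and the Hap2/3/4/5 complex, which binds CCAAT elements, and the heme-responsive factor Hap1 activate many of them. A few core subunits are encoded in mitochondrial DNA and are not among the 34.

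Values are given as signal, an estimate of the reads of a gene divided by a size factor of its library, and 3 values in a row are replicates 1 to 3. The libraries had total signals of 9.38 to 11.9 M and rested on about 4.90 to 23.8 M reads, so that 1 read was worth 0.443 to 2.18 units. SAM1 was at 0 to 1.77 in sam1Δ/sam1Δ against 17140.4, 6030.3 and 4589 in wildtype. SAM2 was at 2.43 to 6.89 in sam2Δ/sam2Δ against 39411, 17280.0 and 19627 in wildtype. Both deletions were thus as the labels state. SAM1 was also lower in sam2Δ/sam2Δ, at a log2FC of -1.34 against wildtype, which passed the cutoffs given below. Without wildtype replicate 1 it was -0.78 and still passed. Without sam2Δ/sam2Δ replicate 3 it was -1.42 and did not pass. Wildtype replicate 1 stood apart from its partners for many genes, and sam2Δ/sam2Δ replicate 3 held 1473 units of the alpha-cell pheromone gene MF(ALPHA)1 against 18.2 to 56.6 elsewhere, and 282 of STE3, the a-factor receptor of alpha cells, against 45.7 to 74.5. STE2, the alpha-factor receptor of a cells, was at 68.1 to 144 in all 9. Other markers of these cell types went both ways. SAG1, an alpha-specific gene, was higher in sam2Δ/sam2Δ than in wildtype, at a log2FC of 0.82, and at 0.70 without that replicate 3. Both passed the cutoffs given below. Alpha-specific MF(ALPHA)2 (-0.71) and a-specific BAR1 (-0.62) were lower in sam2Δ/sam2Δ than in sam1Δ/sam1Δ. Values without wildtype replicate 1 or without sam2Δ/sam2Δ replicate 3 are given beside the results that they move most.

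The upstream DNA of 5 genes is shown first, because ATP20, COX7 and QCR6 were the members that separated the mutants and CYT1 and COX8 had lower log2FCs in sam2Δ/sam2Δ beside QCR6. COX5A, whose log2FC there (-0.49) was below that of COX8 (-0.43), is not shown. Each stretch runs from 300 to 101 bases before the start codon on the gene's strand, read from the R64 reference of strain S288C, from which W303 can differ. Capitals mark CCAAT or its longer form ACCAATNA on either strand, and a consensus for Hap1 (CGG, any 3 bases, TA, any base, CGG).
ATP20: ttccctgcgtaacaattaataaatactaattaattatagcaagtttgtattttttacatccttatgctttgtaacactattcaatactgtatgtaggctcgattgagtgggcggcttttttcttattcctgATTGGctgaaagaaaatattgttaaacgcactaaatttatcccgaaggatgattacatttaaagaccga
COX7: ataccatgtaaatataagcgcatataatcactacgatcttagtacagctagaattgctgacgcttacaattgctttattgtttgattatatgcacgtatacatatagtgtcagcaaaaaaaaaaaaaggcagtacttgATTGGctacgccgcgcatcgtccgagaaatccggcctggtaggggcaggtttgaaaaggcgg
QCR6: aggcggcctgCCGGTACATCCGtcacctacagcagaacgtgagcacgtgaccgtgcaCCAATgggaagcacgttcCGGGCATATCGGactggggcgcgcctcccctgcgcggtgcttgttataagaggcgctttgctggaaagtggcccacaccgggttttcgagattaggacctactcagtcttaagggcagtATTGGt
CYT1: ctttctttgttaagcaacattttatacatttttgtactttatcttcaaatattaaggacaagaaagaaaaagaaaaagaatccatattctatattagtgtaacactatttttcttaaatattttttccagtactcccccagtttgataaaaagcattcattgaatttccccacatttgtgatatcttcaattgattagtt
COX8: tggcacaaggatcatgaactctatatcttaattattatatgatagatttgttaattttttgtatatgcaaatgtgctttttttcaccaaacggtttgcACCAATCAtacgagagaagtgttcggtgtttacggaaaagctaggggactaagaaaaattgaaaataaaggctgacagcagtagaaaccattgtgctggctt
They lie at chrXVI:599570-599769 (ATP20, YPR020W, plus strand), chrXIII:779228-779427 (COX7, YMR256C, minus strand), chrVI:224870-225069 (QCR6, YFR033C, minus strand), chrXV:447139-447338 (CYT1, YOR065W, plus strand) and chrXII:910066-910265 (COX8, YLR395C, minus strand). The QCR6 stretch reaches into the coding region of PHO4 and that of COX8 into VPS33.

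CCAAT stood within 500 bases of the start codon of 31 of the 34 genes (91.2%), against 62.4% of 6006 genes. The longer form, which contains CCAAT, was found before 14 of the 34 (41.2%) and before 8.59% of all genes. None of the 3 complex II genes and 6 of the 12 ATP synthase genes had it. The Hap1 consensus was found before 1 of the 34, QCR6, where 2 copies lie 290 to 279 and 225 to 214 bases before the start codon, and before 21 of the 6006 genes. The 3 genes with no CCAAT in these 500 bases were CYT1, CYC1 and COX4. A match says only that these letters are there.

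These genes were among the abundant transcripts of wildtype, the strain in which they were ranked among all genes. Divided by coding length, the wildtype mean ranged from 2457 units per kb for ATP20 to 36119 for QCR7, and the median of the 34 was 9878 units per kb against 521 for the 5654 tested genes with a coding length. The lowest of the 34 stood at the 84.4th percentile of those genes and the median member at the 95.2nd. Subunits of 1 complex thus had unequal transcript levels, with a 4.95-fold range in wildtype signal per kb across complex III, 4.53-fold across complex IV and 8.02-fold across the ATP synthase. Without ATP20 the lowest ATP synthase gene per kb was ATP5, at 5906.

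**Figure D1:**
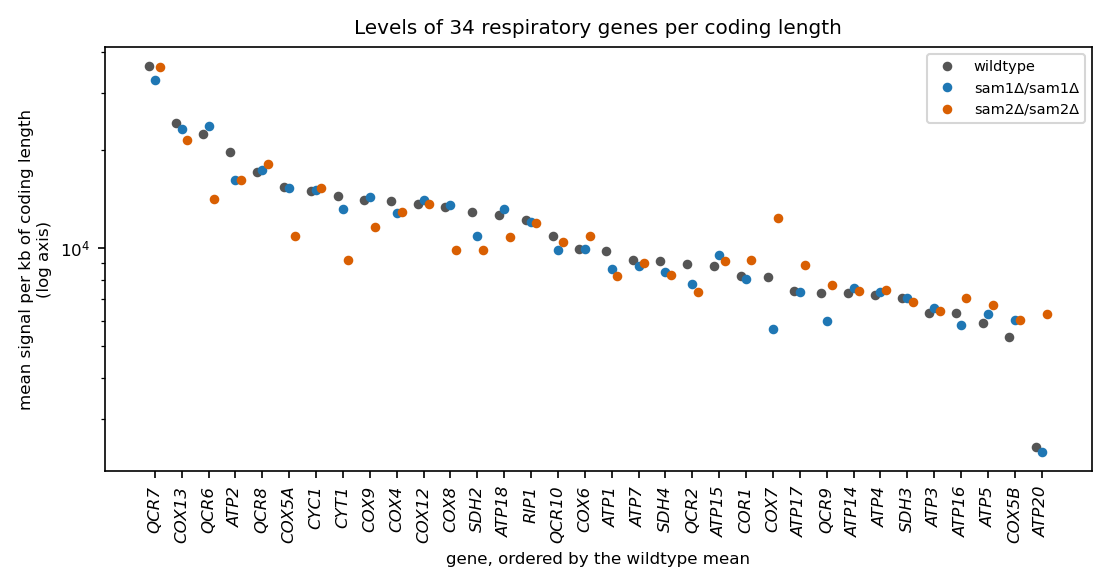
Mean signal per kb of coding length (log axis) for the 34 genes in wildtype (grey), sam1Δ/sam1Δ (blue) and sam2Δ/sam2Δ (orange), ordered by the wildtype mean; each point is the mean of 3 libraries. ATP20, the lowest in wildtype at 2457 units per kb, was at 6265 in sam2Δ/sam2Δ, within the range of its neighbours.

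The first comparison asked whether loss of SAM1 changed these genes. Differentially expressed genes (DEGs) were those with an unadjusted P no higher than 0.05 whose log2FC reached 0.58 in either direction, and P values adjusted over all genes by Benjamini-Hochberg are printed with each log2FC that has an SE. In sam1Δ/sam1Δ none of the 34 genes was a DEG, by limma with a trend or by limma-voom, while 1.15% of the 6109 genes tested were, 0.622% higher and 0.524% lower. Without wildtype replicate 1 it was 1 of the 34, COX7, and 5.84% of all genes. With all libraries kept, none of the 34 reached an unadjusted P of 0.05. Their log2FCs ran from -0.52 (COX7) to 0.18 (COX5B), 16 above and 18 below 0, and 33 of the 34 were smaller than 0.3 in size. The median was -0.01, as for all genes tested, and the median size was 0.07 against 0.11. In 17 genes the 95% interval of the log2FC lay within ±0.58, and in 31 within ±1, with CYC1, COX7 and ATP2 reaching past ±1.

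The second comparison asked the same of SAM2. In sam2Δ/sam2Δ 1 of the 34 genes, ATP20, was a DEG, and it was higher, where 9.85% of the 6099 genes tested were DEGs, 5.0% higher and 4.85% lower. No gene of the 34 was a DEG at an adjusted P of 0.05, and 1 had an unadjusted P below 0.05. The log2FCs ran from -0.63 (QCR6) to 1.34 (ATP20), 16 above and 18 below 0, with a median of -0.0048 against -0.01 for all genes and a median size of 0.17 against 0.28. In 7 genes the 95% interval lay within ±0.58 and in 27 within ±1. With all libraries scaled to equal totals, both medians moved to 0.15, so log2FCs here are relative to a centre that this choice sets.

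The mutants were also compared directly, in a fit of all 9 libraries. Between them 3 of the 34 genes were DEGs, ATP20 and COX7 higher and QCR6 lower in sam2Δ/sam2Δ, where 10.2% of 6139 genes were, 5.13% higher and 5.05% lower. The median log2FC was -0.02 against -0.01 for all genes, and its median size 0.09 against 0.26. Since both comparisons with wildtype share its 3 libraries, only this contrast tests a difference between the mutants.

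**Figure D2:**
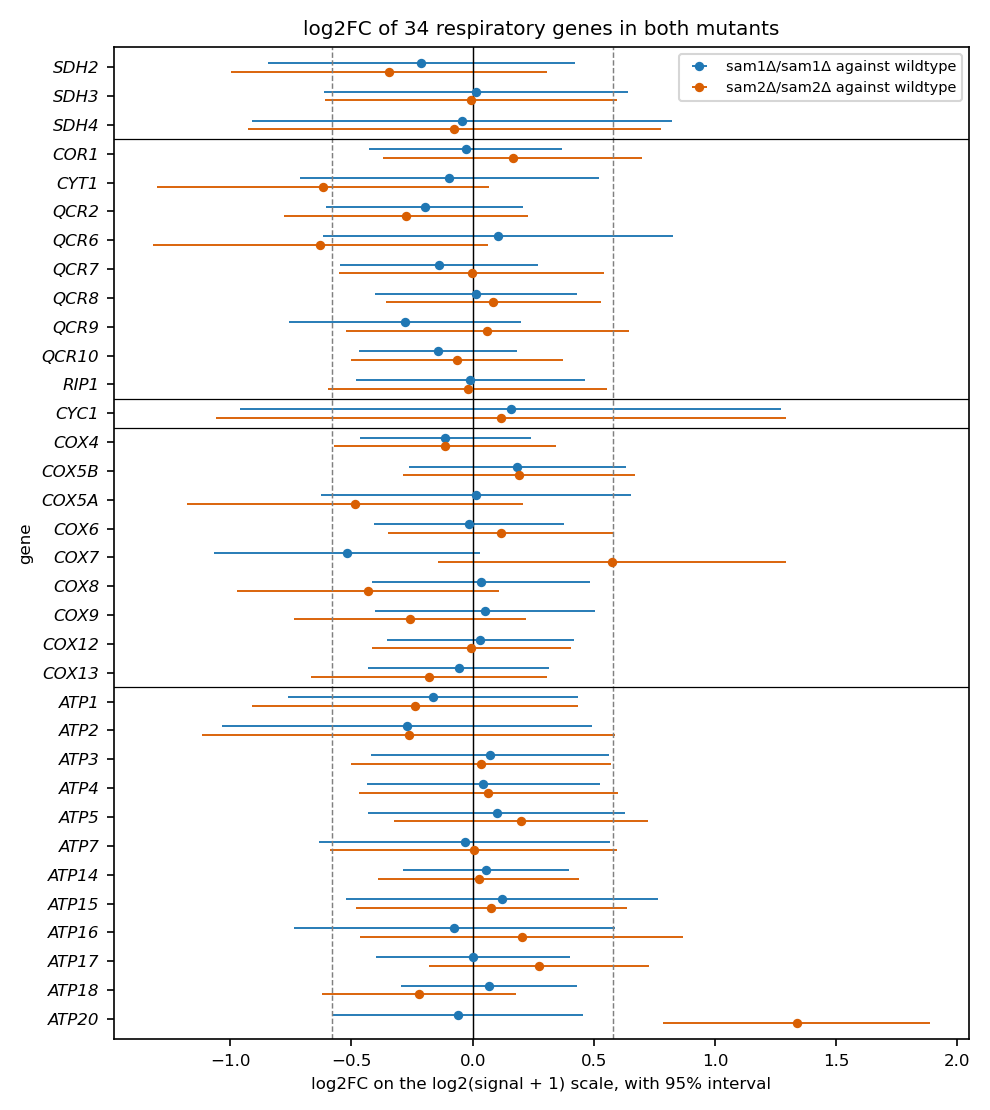
log2FC (points) with 95% intervals (lines) of the 34 genes in sam1Δ/sam1Δ (blue) and sam2Δ/sam2Δ (orange) against wildtype, on the log2(signal + 1) scale; the dashed lines stand at -0.58 and 0.58 and the horizontal lines part complex II, III, cytochrome c, IV and the ATP synthase. The interval of ATP20 in sam2Δ/sam2Δ, 0.78 to 1.89, is the one that clears 0.

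Groups that do not overlap were read beside these calls. In sam1Δ/sam1Δ 1 of the 34 genes, COX4, was lower in each library than in any of wildtype, where the libraries of 6.53% of all genes tested did not overlap. In sam2Δ/sam2Δ it was 6 of the 34, ATP20 higher and CYT1, QCR2, QCR6, COX13 and ATP18 lower, against 22.3% of all genes. Between the mutants it was 9, against 25.4%. These counts were chosen for naming after the values were seen.

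Complex II couples the oxidation of succinate in the citric acid cycle to the chain. Signal of SDH2, its iron-sulfur subunit, was 7191, 12006 and 11737 in wildtype, 9906, 7606 and 8664 for sam1Δ/sam1Δ and 8379, 7842 and 7541 for sam2Δ/sam2Δ. The 3 sam2Δ/sam2Δ libraries lay close together and between the wildtype values, and log2FC was -0.21 ± 0.26 (SE, adjusted P = 1.00) in sam1Δ/sam1Δ and -0.34 ± 0.27 (SE, adjusted P = 0.65) in sam2Δ/sam2Δ. Without wildtype replicate 1, the lowest of the 9, SDH2 became a DEG in sam2Δ/sam2Δ with a log2FC of -0.59, and its log2FC in sam1Δ/sam1Δ was -0.45, short of the fold limit. The membrane anchor genes SDH3 and SDH4 had signals of 2953 to 5037 and 2814 to 6235 over the 9 libraries, and their log2FCs stood between -0.08 and 0.01 in both mutants. The nuclear gene for the flavoprotein subunit, SDH1, is not among the 34; its log2FC was -0.39 ± 0.24 (SE, adjusted P = 0.52) in sam2Δ/sam2Δ.

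In complex III, 9 genes gave log2FCs of -0.28 to 0.10 in sam1Δ/sam1Δ and -0.63 to 0.17 in sam2Δ/sam2Δ. The lowest pair of the latter were genes for neighbouring proteins of the enzyme, the heme protein cytochrome c1 (CYT1) and the small acidic subunit Qcr6 that binds to it. Signal of CYT1 was 18098, 10661 and 11605 in wildtype, 11209.8, 13089.6 and 12500.1 for sam1Δ/sam1Δ and 7646, 8284 and 9779.5 for sam2Δ/sam2Δ. All 3 sam2Δ/sam2Δ libraries lay below all 6 others, and log2FC was -0.62 ± 0.29 (SE, adjusted P = 0.42) against wildtype and -0.52 ± 0.24 (SE, adjusted P = 0.32) against sam1Δ/sam1Δ, which passed the fold limit in the first case and the P limit in neither. Signal of QCR6 was 13695, 7870.3 and 8333 in wildtype, 7973, 11758 and 11914.5 for sam1Δ/sam1Δ and 5728, 5697 and 7446 for sam2Δ/sam2Δ. Here too the sam2Δ/sam2Δ libraries lay below the other 6, with log2FC -0.63 ± 0.29 (SE, adjusted P = 0.42) against wildtype and -0.73 ± 0.27 (SE, adjusted P = 0.23) against sam1Δ/sam1Δ. QCR6 was therefore a DEG between the mutants only, and it lost that call without sam1Δ/sam1Δ replicate 2 or 3 or sam2Δ/sam2Δ replicate 1 or 2, at log2FCs of -0.67 to -0.63. With all 9 libraries in 1 fit, CYT1 and QCR6 passed the cutoffs in sam2Δ/sam2Δ against wildtype as well. Without wildtype replicate 1, the highest library for both genes, their log2FCs in sam2Δ/sam2Δ each shrank to -0.38 and neither passed.

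The other complex III genes moved less. QCR2, for a core protein, had 10878, 8859 and 9940.5 in wildtype, 8914.5, 8602 and 8281 for sam1Δ/sam1Δ and 8369, 8075 and 7975 for sam2Δ/sam2Δ, and sam2Δ/sam2Δ lay below wildtype without overlap, with log2FC -0.28 ± 0.21 (SE, adjusted P = 0.63). In sam1Δ/sam1Δ it was -0.20 ± 0.17 (SE, adjusted P = 1.00). QCR9, for another small membrane subunit, had the largest log2FC of complex III in sam1Δ/sam1Δ, -0.28 ± 0.20 (SE, adjusted P = 1.00), from signals of 1299, 1782 and 1323 in wildtype, 1428, 1147 and 1044 for sam1Δ/sam1Δ and 1663, 1135 and 1841 for sam2Δ/sam2Δ, and the groups overlapped. The Rieske iron-sulfur protein gene RIP1, the core gene COR1 and the small-subunit genes QCR7, QCR8 and QCR10 had log2FCs of -0.14 to 0.17 over both mutants. QCR7 was the most even of complex III over the 9 libraries, at 12117 to 14541 units, a 1.20-fold range.

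Cytochrome c carries electrons from complex III to complex IV, and iso-1 from CYC1 is known as the main protein form in aerobic cells. Signal of CYC1 was 8055, 2405 and 4339 in wildtype, 3624, 5849 and 5488 for sam1Δ/sam1Δ and 3885, 3626 and 7586 for sam2Δ/sam2Δ, a 3.35-fold range that lay within strains rather than between them. Its spread among replicates, an SD of 0.64 pooled over the strains on the log2 scale, was the largest of the 34 genes, whose median was 0.21 against 0.31 for all genes. log2FC was 0.16 ± 0.46 (SE, adjusted P = 1.00) in sam1Δ/sam1Δ and 0.12 ± 0.50 (SE, adjusted P = 0.94) in sam2Δ/sam2Δ. The sign in sam1Δ/sam1Δ turned to -0.28 without wildtype replicate 2, so no direction was resolved. CYC7, for the iso-2 form associated with low oxygen, had 8674, 5872 and 9760.2 in wildtype, 7679.7, 7638 and 8189 for sam1Δ/sam1Δ and 10097, 9109.6 and 11554 for sam2Δ/sam2Δ, with log2FC 0.37 ± 0.27 (SE, adjusted P = 0.62) in sam2Δ/sam2Δ. In every library CYC7 signal was above that of CYC1, so CYC1 did not have the higher transcript signal here.

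**Figure D3:**
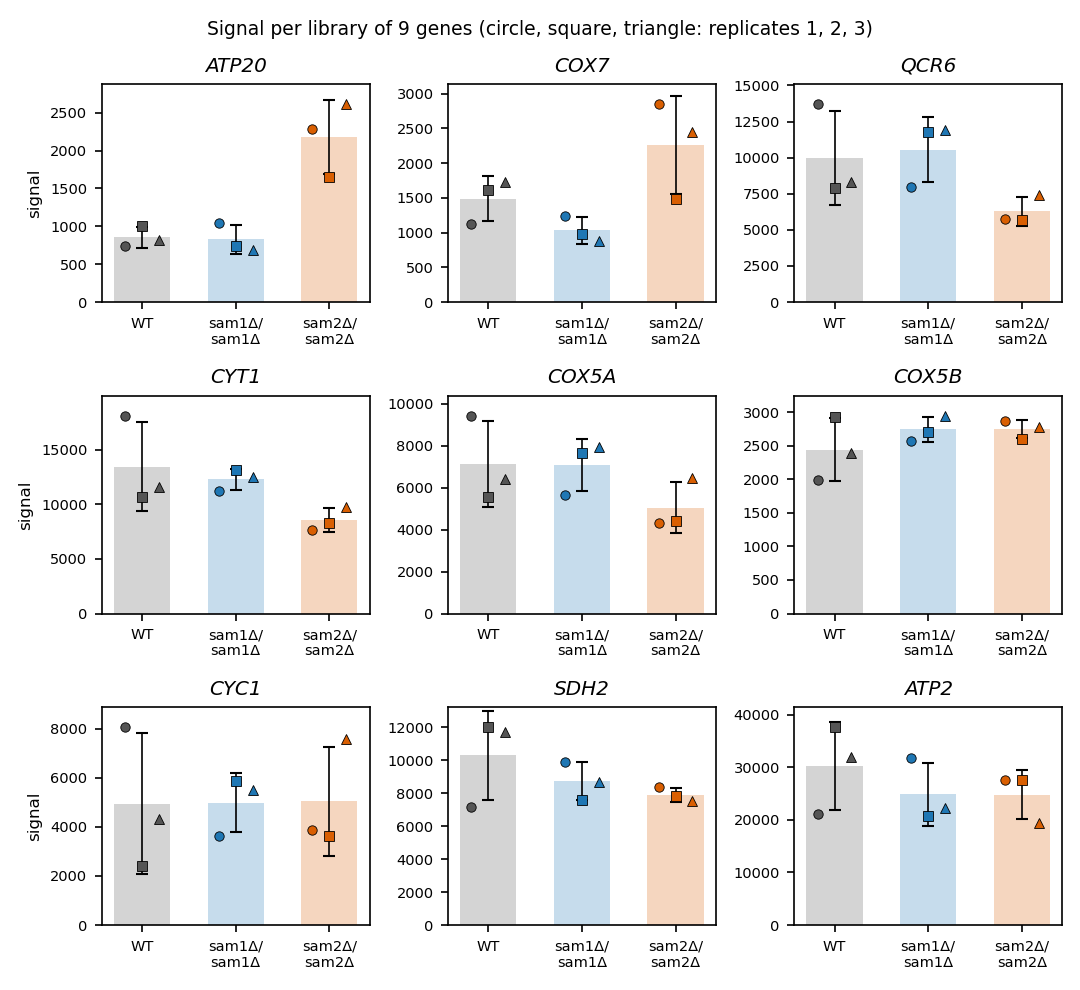
Signal of 9 genes in each library of wildtype (WT, grey), sam1Δ/sam1Δ (blue) and sam2Δ/sam2Δ (orange); bars show the mean of 3 libraries, error bars the SD, and circle, square and triangle replicates 1, 2 and 3. ATP20 is at 1651 units or more in every sam2Δ/sam2Δ library and at most 1041 elsewhere, while for CYC1 the spread within strains exceeds the differences between them.

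In complex IV 1 of the 9 genes separated the mutants as a DEG. This was COX7, for a small subunit of the enzyme's membrane part, with 1125, 1607 and 1732 in wildtype, 1243, 977 and 875 for sam1Δ/sam1Δ and 2848, 1483 and 2448 for sam2Δ/sam2Δ. Every sam1Δ/sam1Δ library lay below every sam2Δ/sam2Δ library, and both overlapped with wildtype. log2FC was -0.52 ± 0.23 (SE, adjusted P = 1.00) in sam1Δ/sam1Δ and 0.57 ± 0.30 (SE, adjusted P = 0.47) in sam2Δ/sam2Δ, neither a DEG. The direct contrast was 1.09 ± 0.28 (SE, adjusted P = 0.11), and COX7 was a DEG there under each alternative that kept these cutoffs. Against wildtype the calls hung on single libraries, since COX7 was a DEG in sam1Δ/sam1Δ without wildtype replicate 1 (log2FC -0.71) or sam1Δ/sam1Δ replicate 1 (-0.66), and in sam2Δ/sam2Δ without replicate 2 of that strain (0.85). Replicate 2 of sam2Δ/sam2Δ, the lowest of its group, was the library with the fewest reads (4.90 M).

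COX5A and COX5B encode alternative forms of subunit V, used in air and under low oxygen, respectively. Signal of COX5A was 9429, 5539 and 6409 in wildtype, 5663, 7649 and 7942 for sam1Δ/sam1Δ and 4296, 4395 and 6462 for sam2Δ/sam2Δ. Signal of COX5B was 1992, 2932 and 2400.3 in wildtype, 2580.1, 2705 and 2949 for sam1Δ/sam1Δ and 2873, 2605 and 2788 for sam2Δ/sam2Δ. log2FC of COX5A was 0.01 ± 0.26 (SE, adjusted P = 1.00) in sam1Δ/sam1Δ and -0.49 ± 0.29 (SE, adjusted P = 0.51) in sam2Δ/sam2Δ, and that of COX5B 0.18 ± 0.18 (SE, adjusted P = 1.00) and 0.19 ± 0.20 (SE, adjusted P = 0.72), with overlap in all 4 cases. Per coding length COX5A exceeded COX5B in every library, by 4.67, 1.86 and 2.64 times in wildtype, 2.17, 2.79 and 2.66 times in sam1Δ/sam1Δ, 1.48, 1.67 and 2.29 times in sam2Δ/sam2Δ, and the lowest ratio in sam2Δ/sam2Δ, 1.48, lay below the lowest in wildtype, 1.86, with overlapping groups. Without wildtype replicate 1 the log2FC of COX5A in sam2Δ/sam2Δ was -0.26, and without sam2Δ/sam2Δ replicate 3 it was -0.68, neither a DEG. COX5A had 2 sam2Δ/sam2Δ libraries below all others and the third within the range of the rest.

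COX8, for a small membrane subunit, had 3852, 2836 and 2792 in wildtype, 2893, 3321 and 3414 for sam1Δ/sam1Δ and 1968, 2239 and 2824 for sam2Δ/sam2Δ. Its log2FC in sam2Δ/sam2Δ was -0.43 ± 0.23 (SE, adjusted P = 0.47), short of the cutoffs, and against sam1Δ/sam1Δ -0.47 ± 0.19 (SE, adjusted P = 0.28), where P passed and the fold limit did not. The first was -0.28 without wildtype replicate 1. COX4, COX6, COX9, COX12 and COX13, also for nuclear subunits around the mitochondrially encoded core, had log2FCs of -0.11 to 0.05 in sam1Δ/sam1Δ and -0.26 to 0.12 in sam2Δ/sam2Δ. COX13 was the most even of the 34 among replicates, with a pooled SD of 0.055 on the log2 scale, and its signal was 9388, 9099 and 9869.9 in wildtype, 9019.7, 9028 and 9176 for sam1Δ/sam1Δ and 8612, 7862 and 8558 for sam2Δ/sam2Δ. Its groups separated in sam2Δ/sam2Δ at a fold of 0.882.

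The ATP synthase held the member that differed most. ATP20 encodes subunit g, which sits in the membrane and, with subunit e from TIM11, is needed for synthase dimers. Its signal was 735, 1007 and 823 in wildtype, 1041, 744 and 693 for sam1Δ/sam1Δ and 2279, 1651 and 2611 for sam2Δ/sam2Δ. Each of the 3 sam2Δ/sam2Δ libraries exceeded the highest of the other 6, and the sam1Δ/sam1Δ values fell among those of wildtype. log2FC was 1.34 ± 0.23 (SE, adjusted P = 0.21) against wildtype, a fold of 2.52, and 1.40 ± 0.23 (SE, adjusted P = 0.042) against sam1Δ/sam1Δ, a fold of 2.63, with 0.78 to 1.89 and 0.87 to 1.92 as 95% intervals. In sam1Δ/sam1Δ it was -0.06 ± 0.21 (SE, adjusted P = 1.00). ATP20 was a DEG in sam2Δ/sam2Δ under each of 16 alternatives that kept the cutoffs, with log2FC 1.19 to 1.52, and between the mutants under each of 18, with 1.25 to 1.58. The adjusted P between the mutants, 0.042, went from 0.030 to 0.25 over these, passing 0.05 in 10 of 18, and against wildtype it went from 0.049 to 0.76. Without sam2Δ/sam2Δ replicate 3, log2FC against wildtype was 1.19, and without wildtype replicate 1 it was 1.23.

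ATP20 lies on chromosome XVI at 599870 to 600217 (R64), a single coding exon on the plus strand. Of the 8 other tested genes within 10 kb, 0 were DEGs in sam2Δ/sam2Δ, with log2FCs of -0.50 to 0.08. The nearest, MCM4 just upstream and AGC1 downstream, had -0.05 and -0.16. TIM11, its partner for dimers, had 1621, 1701 and 1768 in wildtype, 1624, 1589 and 1771 for sam1Δ/sam1Δ and 1682, 1468 and 1663 for sam2Δ/sam2Δ, with log2FC -0.08 ± 0.16 (SE, adjusted P = 0.86) in sam2Δ/sam2Δ. Of these 10 genes, ATP20 and TIM11 included, ATP20 was the only DEG.

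The other 11 ATP synthase genes had log2FCs of -0.27 to 0.12 in sam1Δ/sam1Δ and -0.26 to 0.27 in sam2Δ/sam2Δ. ATP2, for the catalytic beta subunit and the highest signal of the group, had 21153, 37594 and 32011 in wildtype, 31709, 20651 and 22174 for sam1Δ/sam1Δ and 27596, 27479 and 19361 for sam2Δ/sam2Δ. Its log2FC was -0.27 ± 0.31 (SE, adjusted P = 1.00) in sam1Δ/sam1Δ and -0.26 ± 0.36 (SE, adjusted P = 0.79) in sam2Δ/sam2Δ, and both mutants overlapped with wildtype. The log2FC in sam1Δ/sam1Δ without wildtype replicate 1 was -0.51 for ATP2 and -0.35 for ATP1, neither a DEG. ATP1, for the alpha subunit, had 12183, 18998 and 16920.0 in wildtype, 16591, 12914 and 13008 for sam1Δ/sam1Δ and 15012, 13578 and 11728 for sam2Δ/sam2Δ, with log2FC -0.16 ± 0.25 (SE, adjusted P = 1.00) and -0.24 ± 0.28 (SE, adjusted P = 0.76); its locus overlaps the dubious reading frame YBL100C, so its signal is an estimate of a split. The remaining head and central stalk genes, ATP3 (gamma), ATP16 (delta) and ATP15 (epsilon), the peripheral stalk genes ATP4 (b), ATP5 (OSCP), ATP7 (d) and ATP14 (h), and the membrane genes ATP17 (f) and ATP18 (i/j) did not pass the cutoffs in any comparison. ATP18 separated from both other strains at 1875 to 2023 units in sam2Δ/sam2Δ, against 2032 to 2520 in wildtype and 2221 to 2558 in sam1Δ/sam1Δ, with log2FC -0.22 ± 0.17 (SE, adjusted P = 0.63) against wildtype. ATP14, whose locus also overlaps another frame, YLR294C, was the most even of all 34 over the 9 libraries, with a 1.20-fold range.

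**Figure D4:**
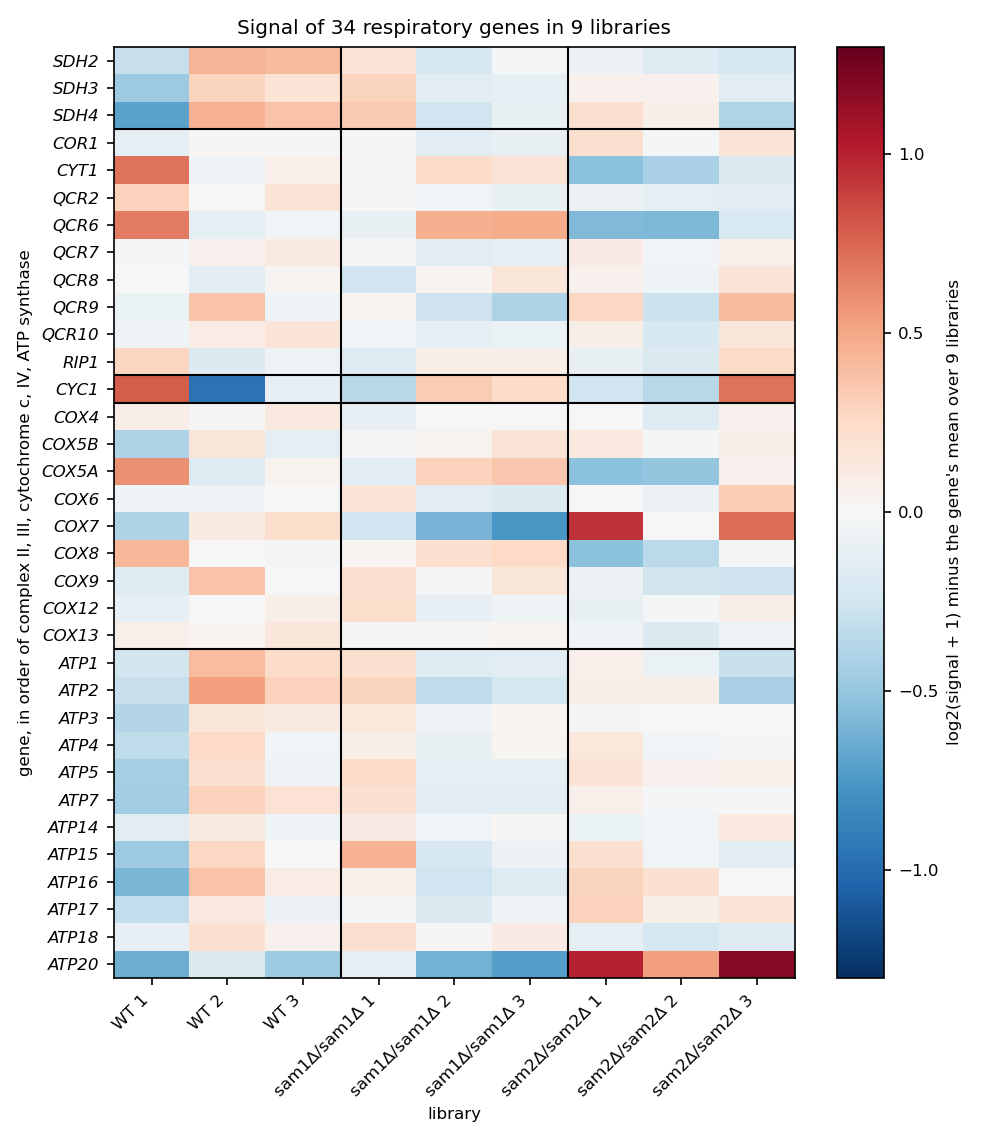
Heat map of log2(signal + 1) of each of the 34 genes (rows, parted by complex) in each of the 9 libraries (columns), as the difference from the gene's mean over the 9; red is higher and blue lower. ATP20 stands out in all 3 sam2Δ/sam2Δ libraries, while wildtype replicate 1 is blue for all 12 ATP synthase genes and all 3 complex II genes and red for CYT1, QCR6, CYC1 and COX5A.

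Much of the variation lay within strains. Wildtype replicate 1 was the lowest wildtype library for 23 of the 34 genes, all 12 of the ATP synthase and all 3 of complex II among them, and the highest for 7. Its ratio to the mean of replicates 2 and 3 ran from 0.463 (SDH4) to 2.39 (CYC1), with a median of 0.841. The ATP synthase genes on the one hand and CYT1 and CYC1 on the other thus departed from the other replicates in opposite directions in this library. Its total reads, 18.2 M, were as many as those of wildtype replicate 3.

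HAP4, the regulated subunit of the CCAAT-binding activator, differed between replicates too, with 15995.5, 9495 and 8827 in wildtype, 9439, 15382 and 16749.9 for sam1Δ/sam1Δ and 9479, 9025 and 17739.9 for sam2Δ/sam2Δ. Wildtype replicate 1, sam1Δ/sam1Δ replicates 2 and 3 and sam2Δ/sam2Δ replicate 3 were high, at 15382 to 17740 units, and the other 5 at 8827 to 9495. The same 4 libraries were the highest for RIP1, CYC1 and COX5A and the lowest for SDH3, SDH4, ATP1, ATP2, ATP15 and ATP16. Over 6139 genes they were the 4 highest for 16.7% and the 4 lowest for 15.9%, so the share of the 34 genes with either pattern, 3 and 6, was near or under that of all genes. JEN1, a lactate permease gene, was at 9298 to 11363 in these 4 and at 1945 to 2755 in the other 5, and HXK1, for hexokinase 1, at 18124 to 36631 and 76987 to 100890. Both are on the list of 12 glucose-repressed genes, and they went in opposite directions, so they give no common direction for that list. The part of these differences between libraries in the strain comparisons was not tested. The 2 sam1Δ/sam1Δ libraries among the 4, against 1 each in the other strains, leave the strains unequal in this respect.

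**Figure D5:**
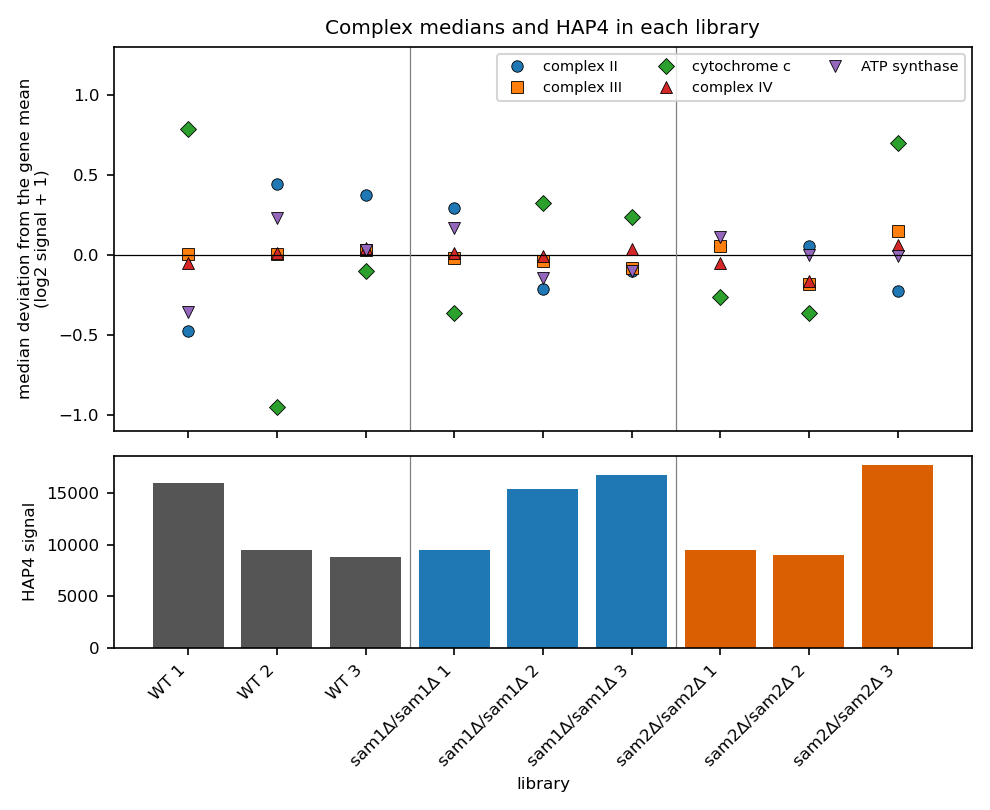
Upper panel, median over the genes of each complex of the deviation from the gene's mean over 9 libraries, on the log2(signal + 1) scale, per library; lower panel, HAP4 signal per library. Wildtype replicate 1 has medians of -0.36 for the ATP synthase and -0.48 for complex II and a value of 0.79 for CYC1, with HAP4 at 15996 units.

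The regulators of respiratory genes, activators and repressors, gave 0 DEGs against wildtype by limma, with HAP5 in sam2Δ/sam2Δ the 1 of 10 regulators at P below 0.05, where 13.3% of all genes were. HAP1 had log2FC -0.06 ± 0.13 (SE, adjusted P = 1.00) in sam1Δ/sam1Δ and -0.14 ± 0.17 (SE, adjusted P = 0.77) in sam2Δ/sam2Δ, and HAP2 -0.05 ± 0.18 (SE, adjusted P = 1.00) and -0.28 ± 0.18 (SE, adjusted P = 0.56). HAP5, a DNA-binding subunit of the CCAAT complex, had 440.4, 442 and 399 in wildtype, 393, 427 and 486 for sam1Δ/sam1Δ and 303, 277 and 281 for sam2Δ/sam2Δ, all 3 sam2Δ/sam2Δ libraries below the other 6. Its log2FC was -0.57 ± 0.16 (SE, adjusted P = 0.25) against wildtype, just short of the fold limit, and -0.60 ± 0.13 (SE, adjusted P = 0.084) against sam1Δ/sam1Δ, a DEG. HAP3, its partner, was -0.50 ± 0.28 (SE, adjusted P = 0.48) against wildtype and -0.58 ± 0.25 (SE, adjusted P = 0.29), a DEG, between the mutants, so that 2 of 10 regulators were DEGs there, against 10.2% of all genes. HAP4 was 0.29 ± 0.34 (SE, adjusted P = 1.00) in sam1Δ/sam1Δ and 0.06 ± 0.38 (SE, adjusted P = 0.96) in sam2Δ/sam2Δ, and ROX1, a heme-dependent repressor of hypoxic genes, ranged from 1554 to 10897 units within wildtype alone.

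Genes that serve the same complexes were read as lists beside the 34. Of 8 remaining nuclear subunits and ATP synthase regulators, 0 were DEGs in either mutant, 1 at P below 0.05 in sam2Δ/sam2Δ by limma. That was INH1, the inhibitor of ATP hydrolysis by the synthase, with 1219.7, 1342 and 1108 in wildtype, 1551, 1369 and 1321 for sam1Δ/sam1Δ and 914, 829.7 and 969 for sam2Δ/sam2Δ and log2FC -0.43 ± 0.16 (SE, adjusted P = 0.33) against wildtype and -0.64 ± 0.14 (SE, adjusted P = 0.078) against sam1Δ/sam1Δ, a DEG in the latter. COX26, a small complex IV subunit named here after its values were seen, had 3675, 4255 and 3574 in wildtype, 4072, 3251 and 3911 for sam1Δ/sam1Δ and 6240.3, 3674 and 6536 for sam2Δ/sam2Δ, high in the same 2 sam2Δ/sam2Δ libraries as COX7, with log2FC 0.47 ± 0.27 (SE, adjusted P = 0.5). The 7 mitochondrially encoded subunits were at 0 to 11.2 units in these poly-A selected libraries and were not tested.

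Among assembly factors, carriers and electron donors, the 8 DEGs in sam2Δ/sam2Δ against wildtype were lower. Their adjusted P values by limma ran from 0.22 (GUT2) to 0.37 (PET122). Of 23 complex IV assembly and translation factors 3 were lower and 0 higher, against 4.85% of all genes lower: OXA1, the inner membrane insertase, with 1713, 1018 and 1197 in wildtype, 1041, 1391 and 1273 for sam1Δ/sam1Δ and 618, 775 and 688 for sam2Δ/sam2Δ (log2FC -0.89 ± 0.23 (SE, adjusted P = 0.25)), the copper chaperone relative COX23 (-0.87) and PET122, a translational activator of COX3 (-1.54, from signals of 9.19 to 98.2). Of 11 complex III factors CYC3, the heme lyase of cytochrome c, was lower, with 2968, 1137 and 1186 in wildtype, 1101, 2023 and 1773 for sam1Δ/sam1Δ and 729, 677 and 728 for sam2Δ/sam2Δ (log2FC -1.16 ± 0.37 (SE, adjusted P = 0.28)), and of 12 ATP synthase factors NCA3 was lower (log2FC -1.46). Of 5 carriers MIR1, the phosphate carrier, was lower with 13556, 8705 and 8028 in wildtype, 8529, 11471 and 10863 for sam1Δ/sam1Δ and 5271, 5643 and 5487 for sam2Δ/sam2Δ (log2FC -0.85 ± 0.26 (SE, adjusted P = 0.28)), as was AAC1, an ADP/ATP carrier (-0.75). The list of 8 electron donors also held CYB5 and URA1, which are not read here as donors to this chain. On it GUT2, the mitochondrial glycerol-3-phosphate dehydrogenase, was lower with 2743, 3316 and 3527 in wildtype, 3508, 2588 and 2584 for sam1Δ/sam1Δ and 1828, 1740.0 and 1488 for sam2Δ/sam2Δ (log2FC -0.92 ± 0.19 (SE, adjusted P = 0.22)). Of 8 heme synthesis genes HEM1, which starts the pathway, was lower (-0.65), and of 5 complex II assembly factors and 12 citric acid cycle genes 0 were DEGs, with 1 and 0 at P below 0.05. Wildtype replicate 1 was the highest of the 9 libraries for OXA1, COX23, PET122, CYC3, NCA3, MIR1, AAC1 and HEM1. Without it OXA1 (log2FC -0.68), CYC3 (-0.71), NCA3 (-1.02), MIR1 (-0.61) and GUT2 (-1.03) remained DEGs, and COX23 (-0.75), PET122 (-0.82), AAC1 (-0.56) and HEM1 (-0.41) did not. The complex IV factors then held 8 lower DEGs of 23, the complex II factors 2 of 5, and the electron donor list 2 higher DEGs, CYB2 and CYB5, beside GUT2, against 6.24% of all genes higher and 6.09% lower. Without sam2Δ/sam2Δ replicate 3, PET122 and HEM1 were no longer DEGs.

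Other members of these lists had higher values in sam2Δ/sam2Δ. NDE2, an external NADH dehydrogenase, and CBP3 and CBP6, which serve cytochrome b synthesis, were higher without overlap and not DEGs against wildtype, with log2FCs of 1.00, 0.40 and 0.32. Between the mutants NDE2 (1.45) and NCA2 (0.97), an ATP synthase factor, were higher DEGs. Lower DEGs in that contrast were GUT2 (-0.77), URA1 (-0.69), MIR1 (-0.90), AAC1 (-0.79), OXA1 (-0.83) and COX23 (-0.84). So were PET122 (-1.50), CYC3 (-1.15), NCA3 (-1.12) and the citric acid cycle gene IDH1 (-1.04). Of all genes 5.13% were higher and 5.05% lower DEGs there. In sam1Δ/sam1Δ none of these lists held a DEG by limma, with 4 genes at P below 0.05, and the 12 glucose-repressed genes held 1, MLS1 for malate synthase (log2FC 0.92 ± 0.20 (SE, adjusted P = 1.00)). Between the mutants the 12 glucose-repressed genes held 3 lower DEGs and 0 higher.

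Mitochondrial ribosomes translate the few subunits encoded in mitochondrial DNA. Of 67 genes for their proteins 50 had a log2FC below 0, with a median of -0.25 against -0.01 for all genes, and 8 were lower and 2 higher DEGs, against 4.85% and 5.0% of all genes. The lower DEGs numbered 10 with either wildtype replicate 1 or sam2Δ/sam2Δ replicate 3 left out. In 28 the libraries separated downwards and in 4 upwards, against 11.2% and 11.1% of all genes. MRPL4 had 762, 775 and 748 in wildtype, 542, 707 and 639.6 for sam1Δ/sam1Δ and 429.6, 401 and 385 for sam2Δ/sam2Δ (log2FC -0.91 ± 0.15 (SE, adjusted P = 0.21)), and RSM7, MRPL19 and MRP4 were lower by log2FCs of -1.04, -0.83 and -0.80. In sam1Δ/sam1Δ 50 of the 67 were also below 0, with a median of -0.07 and 0 DEGs or genes at P below 0.05. The respiratory subunits gave a median of -0.0048 in sam2Δ/sam2Δ, and the difference between the lists was not tested.

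Without sam2Δ/sam2Δ replicate 3, ATP20 was again the 1 DEG of the 34 against wildtype, where 7.78% of all genes were, and 6 of the 34 were DEGs against sam1Δ/sam1Δ, CYT1, QCR6, COX5A and COX8 lower and COX7 and ATP20 higher, where 10.4% of all genes were. Without wildtype replicate 1 it was 2 against wildtype, SDH2 lower and ATP20 higher, against 12.3% of all genes.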

How the data were processed

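Poly-A RNA was sequenced from stranded TruSeq libraries, 3 per strain, and samples were grouped by their labels. Per the submitters' processing notes, TopHat2 2.0.13, Cufflinks and Cuffnorm 2.2.1 were used on the R64-1-1 build. The authors deposited, per gene and library, a normalised signal, an estimated read number divided by a size factor. The table held no comparison columns and 0 other value columns. Of the low values, 95.9 to 98.2% were whole multiples of 1 read within 0.05, too few for the tests on read counts that had been planned, which were not run. Depth was 4.90 to 23.8 M reads per library, so 1 read corresponded to 0.443 to 2.18 units.

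Signal was analysed as log2(signal + 1), a scale that understates changes of low genes, with limma 3.58.1 (trend) in R 4.3.3, over genes with at least 10 units in at least 3 of the libraries fitted. All 34 genes passed. Each mutant was fitted with wildtype (6 libraries), and the mutants were compared in a fit of all 9. An exact permutation test of 3 against 3 libraries cannot give P below 0.1 and was not used. Genes at loci shared with another gene (1420 of 7126 regions) carry an estimated split.

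The 34 genes and the other lists were chosen with earlier results of these data known. Named genes were the DEGs, the 8 largest log2FCs in size against wildtype (3 between mutants), COX5A and COX5B, of other lists at most 4 DEGs, and the regulators and checks HAP1 to HAP5, ROX1, CYC7, SAM1 and SAM2. Other genes named with values, such as TIM11, SDH1, COX26, JEN1 and HXK1, were chosen after their values were seen. Alternatives were other pseudocounts (0.5 and 5), filters, scalings, limma-voom, a replicate block, 1 fit of all libraries, an adjusted P of 0.05 and leaving out each library. Leaving out wildtype replicate 1 or sam2Δ/sam2Δ replicate 3 for the lists beside the 34 was chosen after seeing the data. Promoters and coding lengths came from the R64 reference. Python 3.11.15 with pandas 2.3.3, numpy 2.4.6 and matplotlib 3.10.9 was used, and the fits were tested on simulated data.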

Additional observations from a re-analysis of the deposited data

Results flagged for a closer look

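For 3 of the 34 genes the effect of the SAM2 deletion differed from that of the SAM1 deletion by a direct test of the difference in the fit of all 9 libraries, which has the same value with or without wildtype as the reference. The difference, sam2Δ/sam2Δ minus sam1Δ/sam1Δ on the log2 scale, was 1.40 for ATP20 (adjusted P = 0.042 by limma), 1.09 for COX7 (adjusted P = 0.11) and -0.73 for QCR6 (adjusted P = 0.23). All 3 sam2Δ/sam2Δ libraries were higher than all 3 sam1Δ/sam1Δ libraries for ATP20 and COX7 and lower for QCR6. No groups of 4 or more libraries exist, so single libraries were not screened as outliers.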

How the results depend on the processing

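Under every alternative that kept the DEG cutoffs, ATP20 stayed a DEG in sam2Δ/sam2Δ and between the mutants, and COX7 between the mutants. Of 342 alternative values for 21 named results, 326 kept direction and side of the cutoffs. At an adjusted P of 0.05 the DEGs among the 34 genes were 0 in sam2Δ/sam2Δ and 1 between the mutants (ATP20). With all 9 libraries in 1 fit, sam2Δ/sam2Δ had 3 (CYT1, QCR6 and ATP20), where the cause was not tested. Scaling to equal totals moved the median log2FC of the 34 in sam2Δ/sam2Δ to 0.15, and that of all genes to 0.15. Leaving out 1 library at a time gave 0 to 1 DEGs in sam1Δ/sam1Δ, 1 to 2 in sam2Δ/sam2Δ and 2 to 6 between the mutants. In sam1Δ/sam1Δ it turned the sign of COX5A (log2FC -0.15 to 0.23) and CYC1 (-0.28 to 0.60), neither a DEG.

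Replicate numbers did not pair the libraries over all 3 strains. Deviations of same-numbered libraries correlated at -0.85, -0.78 and -0.60 between sam1Δ/sam1Δ and wildtype, -0.66, 0.14 and -0.64 between sam2Δ/sam2Δ and wildtype, and 0.69, -0.19 and 0.65 between the mutants. Between the mutants, replicates 1 and 3 thus correlated with the same number, and taken crosswise they correlated at -0.71 and -0.61. Libraries of unlike number correlated as highly, with 0.65 for sam1Δ/sam1Δ replicate 2 and sam2Δ/sam2Δ replicate 3. For wildtype replicate 1 and sam2Δ/sam2Δ replicate 3 it was 0.70. A shared number therefore did not mark a pair. With a replicate block the DEGs among the 34 were 0, 1 and 2, and QCR6 lost its call between the mutants.

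With 3 libraries per strain, 95% intervals lay within ±0.58 for 17 of the 34 genes in sam1Δ/sam1Δ and 7 in sam2Δ/sam2Δ. The lowest value of a member was 693 units, in a library where 1 read was worth 0.540 units.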
